A study of Homo sapiens with 26 samples.

Results

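MST1 and LTBP3 are secreted proteins whose ribosome footprints were examined here in Huh7 cells, a human hepatoma line, treated with the small molecule PF-06446846. They were chosen by name, as 2 of the 12325 transcripts in the read maps, by their transcripts ENST00000449682 (MST1) and ENST00000301873 (LTBP3). Both had stood out in the first study after 60 min at 1.5 µM, so values from those libraries are given as a description, and tests are given for the 10 min libraries and for the second study. The paper had also reported the sensitive genes from the tested libraries, so their outcome was in part known when MST1 and LTBP3 were chosen. The question for each was whether footprints were lost over the whole coding sequence (CDS) or only moved along it.

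There were 26 libraries, 22 from ribosome profiling (ribo-seq) and 4 from mRNA-seq. In the first study, ribo-seq was done after 10 min and after 60 min with 1.5 µM compound, 0.3 µM compound or vehicle (0.5% DMSO), with 3 replicates of each. In the second study, ribo-seq and mRNA-seq were done on lysates of cells given 1.5 µM compound or vehicle for 60 min, with 2 replicates of each, numbered 4 and 5. All groups received fresh medium with the treatment, lysis was done with cycloheximide, and 1 cell line is the only model. The study calls its replicates biological but the labels name no separate cultures, so p-values apply to these libraries only. Those of edgeR also draw on the spread of all transcripts. A small edgeR p from 2 against 2 libraries thus does not measure the spread of 1 gene alone. Ribo-seq libraries held 6414227 to 22224137 CDS reads and mRNA-seq libraries 15227654 to 22036358. Of 10 markers of the hepatocyte lineage 9 were listed and read in every library, among them AFP, with 8878 to 14910 reads per 1000000 CDS reads (RPM) in ribo-seq, while ALB is not analysed here. Of 6 markers of other cells 2 were listed, PECAM1 at 11.5 to 26.7 RPM and VIM, which many cultured lines express, at 1051 to 2485 RPM.

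MST1 encodes macrophage-stimulating protein, also called hepatocyte growth factor-like protein. The liver secretes it as an inactive precursor, and trypsin-like proteases such as hepsin cut it to the form that activates the receptor RON. LTBP3 encodes a latent TGF-β binding protein, which is bound to the TGF-β propeptide in the secretory pathway and helps hold latent TGF-β in the extracellular matrix. Both proteins enter the secretory pathway through a hydrophobic signal peptide at the N terminus. Ribo-seq counts the mRNA fragments that ribosomes protect, so reads in a CDS follow the number of ribosomes on it, and a codon where ribosomes wait longer has more reads.

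MST1 has 726 codons in 18 exons on the minus strand of chromosome 3 (GRCh38, 49683947 to 49689474), and LTBP3 has 1304 codons in 28 exons on the minus strand of chromosome 11 (65538559 to 65558359). The 10 codons in which footprints rose most after 60 min at 1.5 µM lay in coding exon 1 of both genes, at codons 21 to 30 of MST1 (chr3:49688602-49688631) and codons 27 to 36 of LTBP3 (chr11:65557852-65557881). They are shown 5′ to 3′ from the GENCODE v44 transcripts because the position results below turn on them, with the single codon of largest rise in that comparison in capitals (codon 25 of MST1 and codon 35 of LTBP3).
MST1 codons 21 to 30: ctgctgcttctgACTcaatgcttaggggtc
LTBP3 codons 27 to 36: ctgctgctgctgctgctgctgctgCTGggc
The LTBP3 stretch is a run of leucine codons that ends in glycine, and the MST1 stretch opens with 4 leucine codons. Each gene had 8 leucine codons among codons 2 to 30, a number reached by 4.87% of 10078 transcripts. Their base composition differed: GC made up 61.9% of codons 2 to 50 in MST1, a value that 38.9% of transcripts reached, and 83.0% in LTBP3, which 1.10% reached.

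Reads of MST1 can be shared with near-identical genes. Of its 2149 windows of 30 bases, 1375 (64.0%) were also found in a transcript of another gene, 1093 of them in MST1P2 and 982 in MST1L, neither of which is among the transcripts counted. The MST1 stretch shown above also occurs in MST1P2. In LTBP3 9 of 3883 windows were shared, all 9 starting in codons 1 to 50 and matching 20 genes, and its stretch was found whole in no other gene. The 3 codons of LTBP3 in these windows had 18 reads over the 10 min libraries at 1.5 µM and 6 with vehicle, and the codons unique to LTBP3 among codons 1 to 50 had 80 and 41. The MST1 values below are therefore sums over MST1 and whatever its copies contributed, and the whole-CDS loss is also given for codons unique to MST1.

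After 10 min at 1.5 µM, footprints on the whole CDS of both genes fell, in every treated library below every vehicle library. MST1 was at 12.2, 10.7 and 10.9 RPM in the 3 treated libraries and at 38.2, 39.9 and 28.0 RPM with vehicle. LTBP3 was at 14.0, 13.2 and 11.9 RPM with treatment and at 29.5, 23.9 and 35.1 RPM with vehicle. The lowest vehicle library thus stood well above the highest treated library for each gene. The log2 fold change was -1.60 ± 0.15 (SE) for MST1 and -1.13 ± 0.17 for LTBP3, which left 32.9% and 45.8% of the vehicle level. Both passed at a false discovery rate (FDR) of 0.1 (edgeR, quasi-likelihood test, adjusted p = 0.000785 and 0.0144 after Benjamini-Hochberg), against 0.851% of 11045 transcripts that passed in either direction and 0.389% that were lower. Without vehicle replicate 1 the adjusted p of LTBP3 was 0.102, above the threshold.

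**Figure D1:**
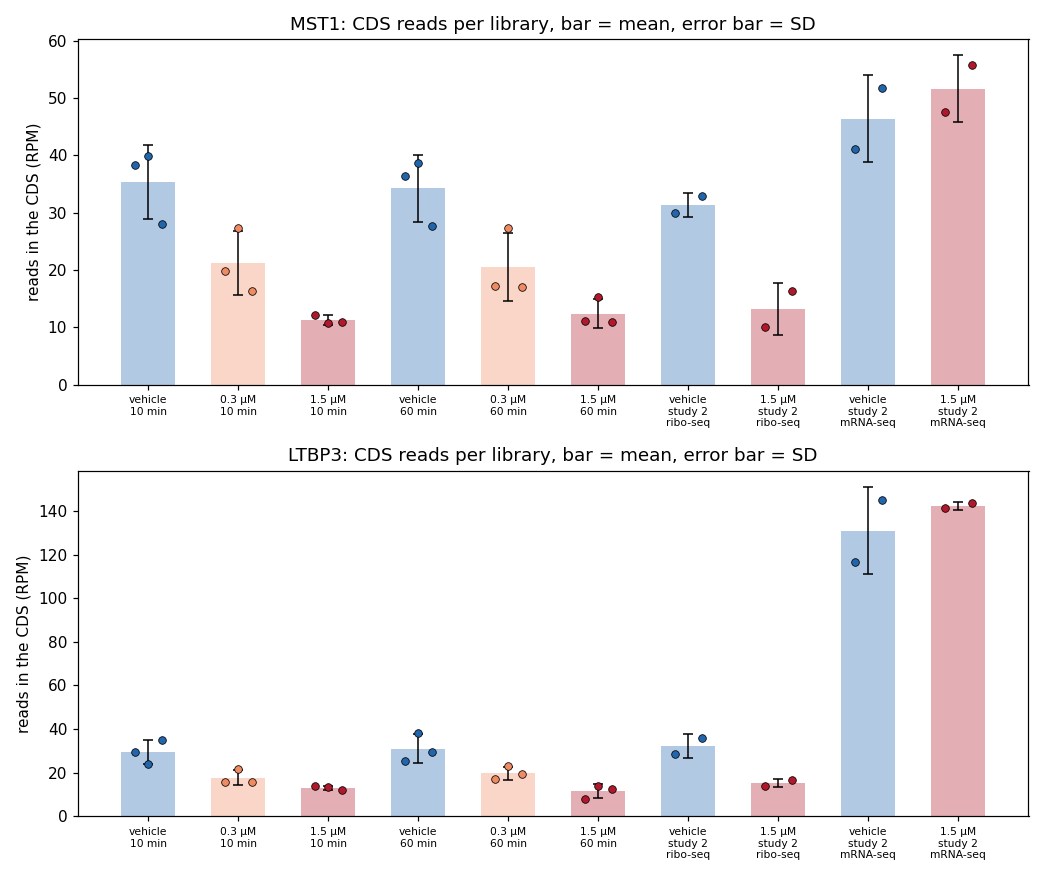
Reads in the CDS of MST1 (top) and LTBP3 (bottom) in RPM for each library, by group, where points are libraries, bars are means and error bars are SD. At 10 min MST1 went from 28.0 to 39.9 RPM with vehicle to 10.7 to 12.2 RPM at 1.5 µM, the ribo-seq of the second study was also lower with treatment, and the mRNA-seq bars overlap.

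The loss was seen again in the second study, with other libraries. MST1 was at 10.0 and 16.4 RPM with 1.5 µM and at 29.9 and 32.9 RPM with vehicle after 60 min. LTBP3 was at 14.1 and 16.6 RPM with 1.5 µM and at 28.4 and 36.0 RPM with vehicle. Neither pair of groups overlapped. The log2 fold changes were -1.24 ± 0.19 for MST1 and -1.06 ± 0.15 for LTBP3 (edgeR adjusted p = 0.0293 and 0.0185), where 13 of 11263 transcripts passed (0.115%, with 0.107% lower). Both genes kept this call when any 1 of the 4 libraries was left out.

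The first study also gave lower values after 60 min, in the libraries on which the genes were picked. MST1 was at 11.0, 15.3 and 10.8 RPM with 1.5 µM and at 36.5, 38.7 and 27.7 RPM with vehicle, a log2 fold change of -1.49 ± 0.19. LTBP3 was at 7.87, 14.0 and 12.4 RPM with 1.5 µM and at 25.4, 38.2 and 29.4 RPM with vehicle, a log2 fold change of -1.49 ± 0.24. In this comparison 0.0726% of 11021 transcripts passed. No test is given for these values.

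The lower dose gave intermediate levels. After 10 min at 0.3 µM, MST1 was at 19.9, 27.4 and 16.3 RPM and LTBP3 at 15.5, 21.6 and 15.7 RPM, all below the vehicle libraries of the same time. Against the same vehicle libraries as above, the log2 fold changes were -0.68 ± 0.19 for MST1 and -0.69 ± 0.19 for LTBP3, which left 62.3% and 62.1%. Neither passed (edgeR adjusted p = 1.00 for both), in a comparison in which 0 of 11131 transcripts passed with edgeR or DESeq2 and 104 had an unadjusted edgeR p below 0.05, these genes among them (0.00462 and 0.00394). Between the doses at 10 min, which reuses the treated libraries, MST1 was lower at 1.5 µM by a log2 of -0.91 ± 0.19 (adjusted p = 0.321) and LTBP3 by -0.43 ± 0.17 (adjusted p = 0.400), with 0 of 11032 transcripts passing in edgeR, 96 in DESeq2 and 1273 at an unadjusted p below 0.05. Blocking on the replicate number, which the pairing of these libraries allows, gave -0.88 for MST1 with an adjusted p of 0.0196 in edgeR, and 390 transcripts passed. After 60 min at 0.3 µM, MST1 was at 17.2, 27.4 and 17.0 RPM and LTBP3 at 16.9, 23.0 and 19.3 RPM, again between the other groups (log2 fold changes of -0.74 ± 0.20 and -0.67 ± 0.18 against vehicle, as a description).

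In mRNA no such loss was found. MST1 mRNA was at 47.5 and 55.8 RPM with 1.5 µM and at 41.1 and 51.8 RPM with vehicle. LTBP3 mRNA was at 141 and 144 RPM with 1.5 µM and at 117 and 145 RPM with vehicle. The groups overlapped for both genes, and the log2 fold changes were 0.14 ± 0.14 (95% interval -0.14 to 0.42) and 0.11 ± 0.11 (-0.11 to 0.32), with adjusted p = 0.999 in edgeR. In mRNA-seq 0 of 11812 transcripts passed with edgeR and 1 with DESeq2, and 228 had an unadjusted edgeR p below 0.05. These intervals lie above the ribo-seq changes of the same study.

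Translational efficiency (TE), the ratio of footprints to mRNA, was lower in each treated library. On the log2 scale TE of MST1 was -0.46 and -0.66 with vehicle and -2.25 and -1.76 with 1.5 µM. TE of LTBP3 on the same scale was -2.04 and -2.01 with vehicle and -3.32 and -3.11 with 1.5 µM. The groups did not overlap for either gene. In a single edgeR model over the 8 libraries of the second study, the log2 change of TE was -1.38 ± 0.28 for MST1 and -1.17 ± 0.20 for LTBP3, and neither passed (adjusted p = 0.436 and 0.159, with 0.0339% of 11799 transcripts passing). The footprints and mRNA of a replicate came from the same lysate. With the culture as a block the values were -1.43 and -1.18 and both passed (adjusted p = 0.00775 and 0.00427), with 13 transcripts passing. DESeq2 without a block also called both (adjusted p = 0.00188 and 0.000351).

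With vehicle in the second study, LTBP3 mRNA was more abundant than MST1 mRNA per length, at 100.4 against 63.9 RPM per 1000 codons, but its footprints were fewer, at 24.7 against 43.2. TE of LTBP3 was already low without compound: 92.2% of 11439 transcripts had a higher TE, against 64.4% for MST1.

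The position of the footprints also shifted toward the 5′ end. With vehicle few reads of either gene lay in codons 1 to 50. For MST1 at 10 min they were 1.21%, 3.41% and 4.20% of the CDS reads with vehicle, 10.9%, 5.26% and 5.51% at 0.3 µM, and 22.6%, 22.1% and 24.0% at 1.5 µM. For LTBP3 they were 3.74%, 2.68% and 6.71% with vehicle, 12.7%, 3.44% and 16.4% at 0.3 µM, and 36.5%, 21.7% and 31.0% at 1.5 µM. The 1.5 µM libraries stood apart from all vehicle libraries for both genes. In a model of both regions with the library as a block, codons 1 to 50 rose relative to the rest of the CDS by a log2 of 3.46 ± 0.43 in MST1 and 3.21 ± 0.40 in LTBP3 (edgeR adjusted p = 1.59e-05 and 2.02e-05). Such a shift was common at 10 min, since 9.66% of 10375 transcripts passed, and 9.13% did so toward the 5′ end, and the median over all was 0.27. With the boundary at codon 150, the difference for MST1 was 0.89 (adjusted p = 0.0598) and for LTBP3 2.18 (adjusted p = 0.000321).

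In the second study the shift was rarer over all transcripts and was again found in both genes. MST1 had 27.9% and 19.4% of its reads in codons 1 to 50 with 1.5 µM and 4.62% and 2.74% with vehicle. LTBP3 had 31.4% and 20.0% with 1.5 µM and 5.38% and 6.25% with vehicle. The log2 difference was 2.91 ± 0.43 for MST1 and 2.45 ± 0.39 for LTBP3 (edgeR adjusted p = 5.20e-08 and 8.66e-07), where 0.460% of 10441 transcripts passed. With the boundary at codon 150 both were smaller (1.15 and 1.15, adjusted p = 0.0534 and 0.0362). mRNA reads did not move in this way: their share in codons 1 to 50 was 6.16% and 7.54% with 1.5 µM and 8.83% and 5.17% with vehicle for MST1, and 2.46% and 1.87% against 1.77% and 3.07% for LTBP3.

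After 60 min in the first study the shares varied more among treated libraries. MST1 had 20.0%, 7.48% and 25.4% with 1.5 µM, 12.6%, 9.15% and 8.68% with 0.3 µM and 2.99%, 1.50% and 1.43% with vehicle. LTBP3 had 9.71%, 23.5% and 20.9% with 1.5 µM, 6.38%, 7.16% and 9.24% with 0.3 µM and 0.613%, 4.05% and 5.05% with vehicle. Each treated library lay above each vehicle library, at either dose. At 0.3 µM and 10 min the difference between regions was 1.46 ± 0.51 for MST1 and 1.15 ± 0.58 for LTBP3 (edgeR adjusted p = 1.00 for both; 0 of 10493 transcripts passed and 252 had an unadjusted p below 0.05).

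**Figure D2:**
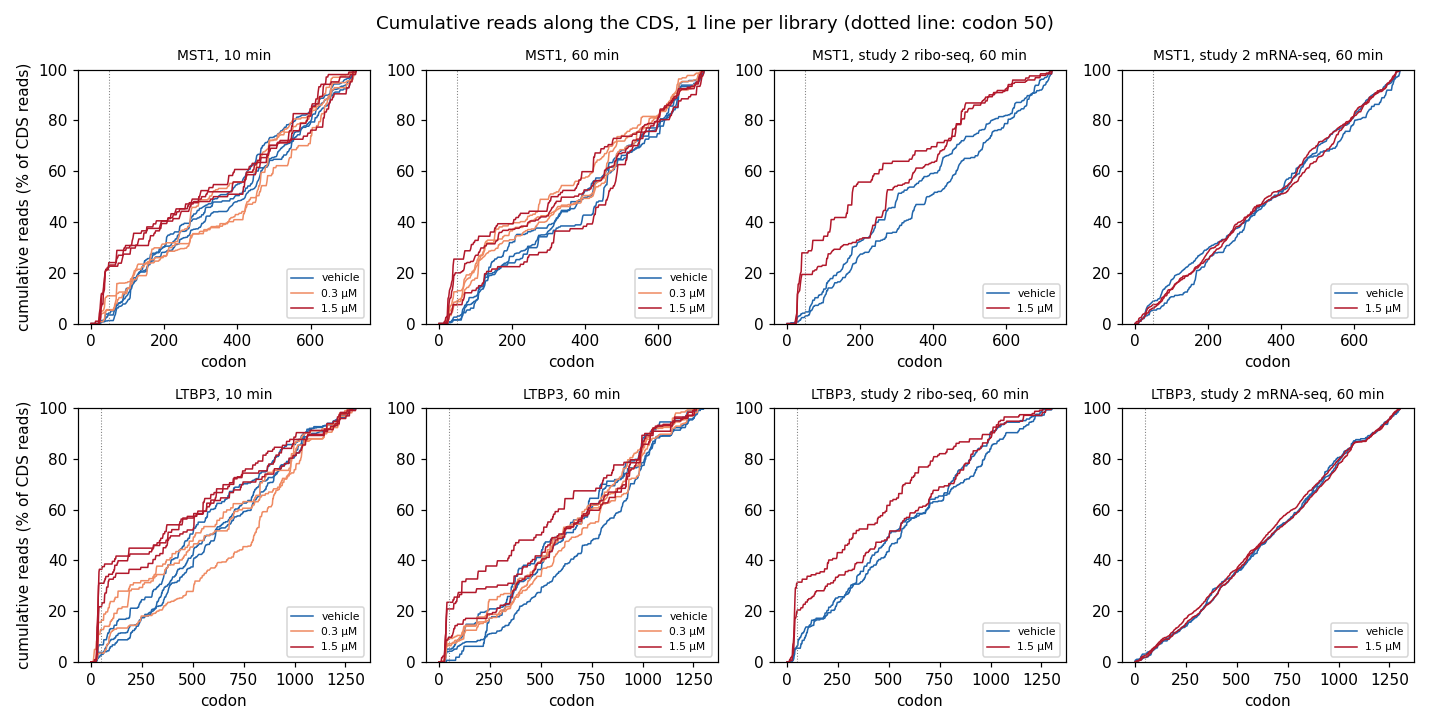
Cumulative reads (percent of CDS reads) at or before each codon of MST1 (top) and LTBP3 (bottom), with 1 line per library in red (1.5 µM), orange (0.3 µM) or blue (vehicle) and a dotted line at codon 50. The 1.5 µM ribo-seq curves rise early, with 19.4% to 36.5% of reads before codon 51 at 10 min and in the second study, and the mRNA-seq curves of both groups lie close together.

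In reads, the gain near the 5′ end was small beside the loss after it. In MST1 at 10 min, codons 1 to 50 went from 1.00 ± 0.47 RPM (SD, n = 3) to 2.58 ± 0.21 RPM, while the codons after them went from 34.4 ± 6.53 to 8.69 ± 0.66 RPM. The gain of 1.58 RPM equalled 6.16% of the loss of 25.7 RPM. In LTBP3 codons 1 to 50 went from 1.37 ± 0.89 to 3.88 ± 1.13 RPM and the rest from 28.1 ± 4.72 to 9.15 ± 1.10 RPM, a gain of 13.2% of the loss. For the second study the gain was 9.20% of the loss in MST1 and 10.6% in LTBP3, and after 60 min in the first study 5.79% and 5.53%. A constant total corresponds to 100%, so these shares restate the whole-CDS fall above and are not a separate test. The paper reports that reads near the start of coding sequences were depleted with or without compound. It also proposes that size selection of fragments could have changed the height of stall peaks. Early ribosomes may thus be undercounted in these shares, which was not tested.

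Beyond codon 50 the loss reached every part of the CDS. In MST1 at 10 min, codons 51 to 100 kept 24.1% of their vehicle level and codons 101 to 150 kept 15.2%, and 4 equal parts of the rest kept 23.5%, 23.4%, 25.8% and 33.5%. In LTBP3 the same windows kept 47.2%, 51.1%, 24.6%, 32.3%, 31.6% and 38.6%. Treated and vehicle libraries did not overlap in any of these windows except codons 51 to 100 of LTBP3. The parts after codon 150 kept, for the second study, 17.3% to 45.4% in MST1 and 33.5% to 48.0% in LTBP3, with no overlap.

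**Figure D3:**
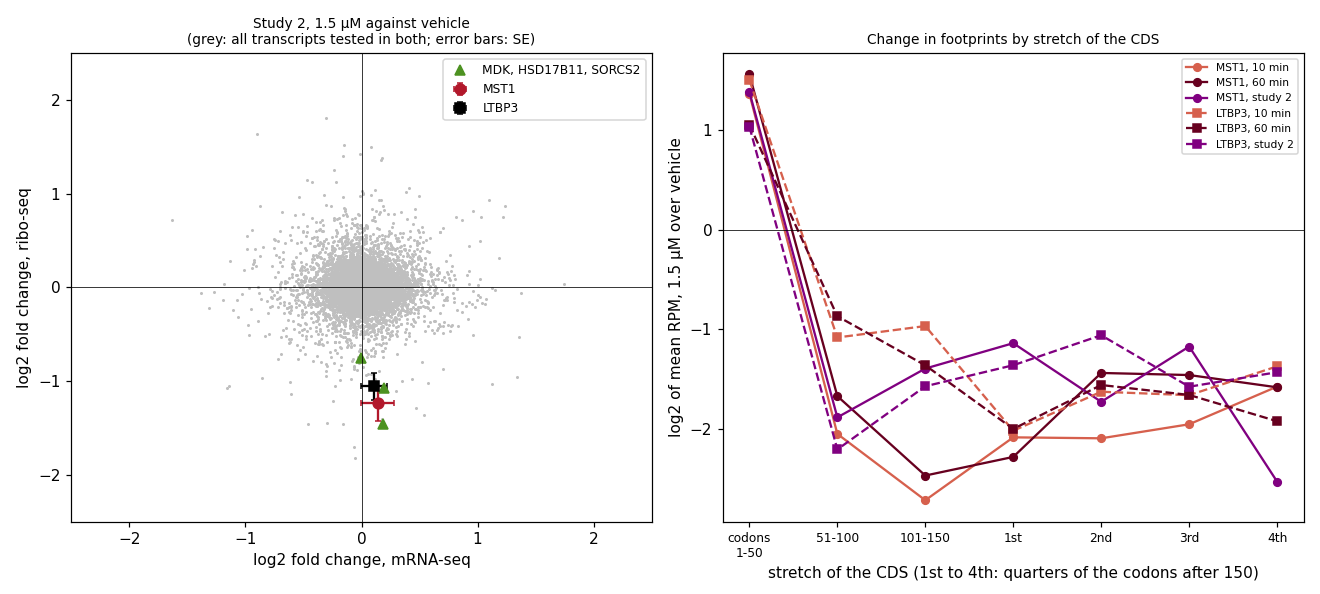
Left, log2 fold change in ribo-seq against that in mRNA-seq for 1.5 µM against vehicle in the second study, with all transcripts in grey MST1 (circle) and LTBP3 (square) with SE bars and MDK, HSD17B11 and SORCS2 as green triangles. Right, log2 of mean RPM at 1.5 µM over vehicle in windows along the CDS, where both genes lie above 0 in codons 1 to 50 and below 0 in every later window of each comparison.

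The early footprints lay almost wholly in codons 21 to 50, since codons 1 to 20 held 0 to 4 reads over the 3 libraries of any group of the first study in MST1 and 0 to 9 in LTBP3. In codons 21 to 50 MST1 had 66 reads over the 3 treated libraries at 10 min against 35 with vehicle, from libraries with fewer reads, and LTBP3 had 97 against 47.

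**Figure D4:**
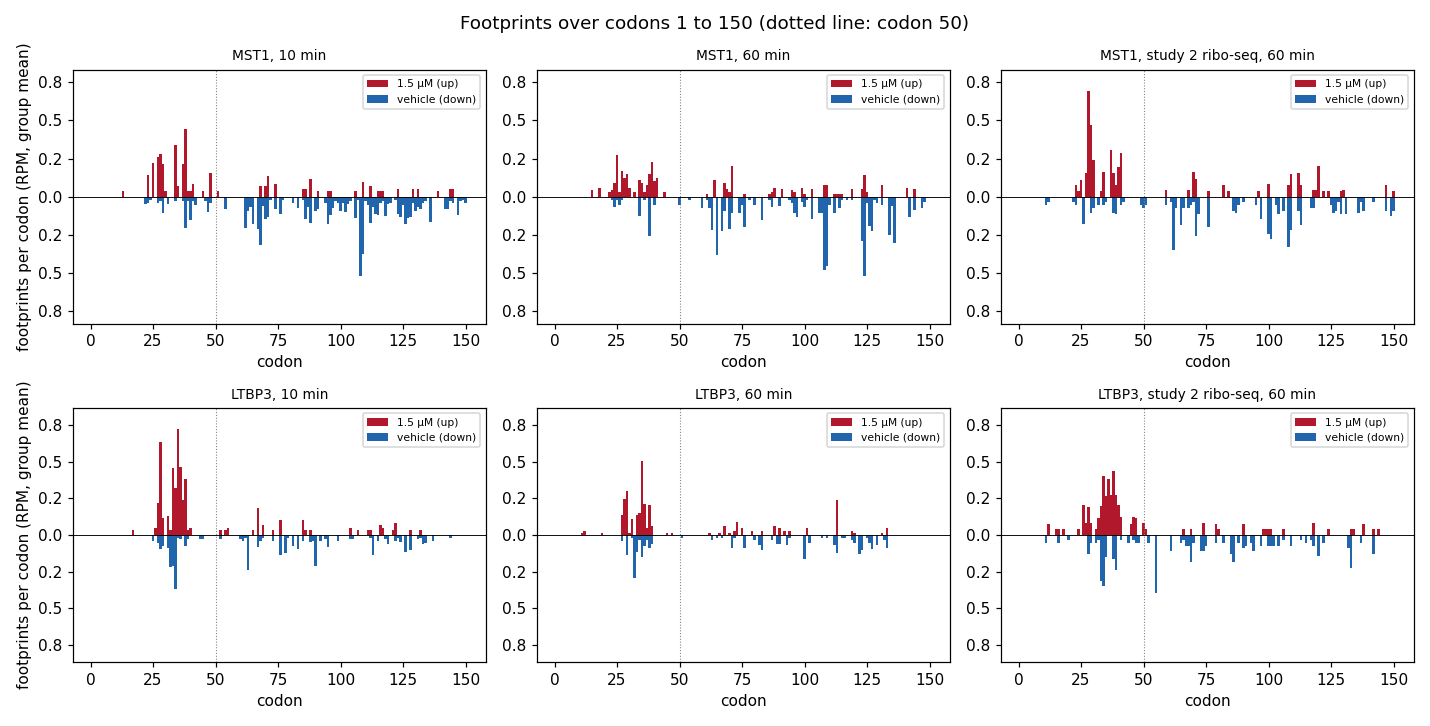
Footprints at codons 1 to 150 of MST1 (top) and LTBP3 (bottom) in mean RPM per group, with 1.5 µM drawn upward in red and vehicle downward in blue, for 10 min, 60 min and the second study. With treatment the signal gathers between codons 21 and 50, and the vehicle signal is spread over the codons shown in MST1 but also gathers in the leucine run of LTBP3.

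The early rise was spread over several codons rather than held at 1. The exact tests of the 10-codon stretches of both genes were added after seeing the data, while windows of 3 codons were planned. In the MST1 stretch shown above, the treated libraries had 10, 7 and 12 reads at 10 min and the vehicle libraries 4, 3 and 3, which is 1.15 ± 0.38 against 0.275 ± 0.068 RPM (exact permutation test, two-sided, p = 0.1, the smallest that 3 against 3 libraries allow). It had 19 and 27 reads with treatment in the second study and 11 and 1 with vehicle, which is 1.78 ± 0.31 against 0.457 ± 0.487 RPM (exact p = 0.333, the smallest for 2 against 2). The groups did not overlap at either time. At codons 24 to 26 alone, around the codon in capitals, MST1 had 1, 3 and 2 reads with treatment and 1, 0 and 0 with vehicle at 10 min. They had 0 and 4 reads with treatment and 5 and 0 with vehicle in the second study, so this window was not higher with treatment there. The leading early codon of MST1 at 1.5 µM differed between comparisons. It was codon 38 at 10 min (12 reads, against 6 with vehicle), codon 25 after 60 min in the first study (10 against 1, ahead of codon 39 with 8 against 0) and codon 28 in the second study (18 reads). No single codon of MST1 is named as a peak from these counts.

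In the LTBP3 stretch the treated libraries had 28, 19 and 31 reads at 10 min and the vehicle libraries 17, 5 and 18, which is 3.09 ± 1.07 against 1.17 ± 0.87 RPM, with an overlap of the groups (exact permutation p = 0.2). With vehicle these 10 codons already held 3.35%, 1.67% and 6.04% of the CDS reads of LTBP3. At codons 34 to 36, around its peak, LTBP3 had 11, 11 and 17 reads with treatment and 6, 1 and 7 with vehicle, or 1.51 ± 0.34 against 0.418 ± 0.377 RPM with no overlap (exact permutation p = 0.1). The second study had 12 and 15 reads at these 3 codons with treatment and 6 and 5 with vehicle (1.05 ± 0.088 against 0.500 ± 0.089 RPM, exact permutation p = 0.333). Treated libraries were thus the higher ones at the LTBP3 peak in these comparisons. After 60 min in the first study, on which the peak was chosen, LTBP3 had 0.0450, 1.14 and 1.42 RPM at these codons with 1.5 µM and 0.156, 0.129 and 0.496 RPM with vehicle, so replicate 1 at 1.5 µM, with 1 read, lay below all vehicle libraries. At 0.3 µM and 10 min neither codons 24 to 26 of MST1 nor codons 34 to 36 of LTBP3 stood apart from vehicle (exact permutation p = 0.4 and 0.5). With so few libraries such an exact test cannot reach the usual threshold of significance.

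Dmax is the largest gap by which the cumulative read curve of treated libraries leads that of vehicle libraries, pooled by group. Its Z-score is Dmax divided by the root mean square of Dmax in a bin of 300 transcripts of like read number. No mean is subtracted. In the comparison used to pick the genes, MST1 had a Dmax of 0.169 at codon 49 (Z = 2.47) and LTBP3 of 0.159 at codon 121 (Z = 2.22), where 2.67% of 11442 transcripts had a Z of 2 or more. The transcripts nearest to that limit were IBA57, N4BP1 and DUSP16 inside it (2.000 to 2.005) and RNF122, CCL20 and MAPK12 outside it (1.997 to 1.999). At 10 min MST1 had a Dmax of 0.208 at codon 53 (Z = 2.15) and LTBP3 of 0.274 at codon 122 (Z = 2.91), with 3.48% of 11422 transcripts at 2 or more. The second study gave MST1 0.191 at codon 41 (Z = 2.70) and LTBP3 0.194 at codon 51 (Z = 2.86), with 2.38% of 11405. From these pooled curves the position was within codons 41 to 53 for MST1 in the 3 comparisons of 1.5 µM with vehicle, and moved from codon 122 to codon 51 for LTBP3.

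Between single libraries the same gap exceeded that between vehicle libraries. At 10 min the 9 pairs of a treated and a vehicle library gave 0.184 to 0.229 for MST1, against at most 0.115 between vehicle libraries. For LTBP3 they gave 0.211 to 0.354 against at most 0.139. Of the pairs in the second study, 4 of 4 lay above the vehicle pairs for each gene in ribo-seq and 0 of 4 in mRNA-seq. After 60 min in the first study 6 of 9 did for MST1 and 5 of 9 for LTBP3. The position was less stable than in pooled curves, at codons 41 to 95 at 10 min, 49 to 604 after 60 min in the first study and 41 to 513 in the second study for MST1, and at codons 60 to 192, 82 to 1005 and 51 to 66 for LTBP3. At 0.3 µM and 10 min 0 of 9 pairs lay above the vehicle pairs for MST1 and 4 of 9 for LTBP3. After 60 min at 0.3 µM 6 of 9 did for MST1 and 0 of 9 for LTBP3. Pairs share libraries, so these values are a description.

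Reads were also counted only 3′ of Dmax, or after codon 50 in transcripts with a Z below 2. Past Dmax the loss is larger than over the whole CDS by construction, because the treated curve leads most there. At 10 min the log2 fold change was -1.91 ± 0.16 for MST1 and -1.61 ± 0.17 for LTBP3 (edgeR adjusted p = 5.68e-05 and 0.000362), where 3.95% of 10755 transcripts passed and 2.59% were lower. The position came from the same libraries, but with codon 50 as the boundary for every transcript the values were -1.91 and -1.53 (adjusted p = 2.99e-05 and 0.000720). Values for the second study were -1.55 ± 0.21 and -1.39 ± 0.17 (adjusted p = 0.00885 and 0.00427), with 0.346% of 10990 passing and 0.337% lower, and with the boundary at codon 50 they were -1.55 and -1.38 (adjusted p = 0.0107 and 0.00520). At 0.3 µM and 10 min both genes had a Z below 2 (1.26 for MST1 and 1.05 for LTBP3), so reads after codon 50 were counted. The changes were -0.74 ± 0.21 and -0.76 ± 0.22 (edgeR adjusted p = 1.00 for both). In this comparison 0 of 10862 transcripts passed in edgeR, 5 in DESeq2, and 165 had an unadjusted p below 0.05.

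The center of density, the mean position of reads in percent of the CDS length, lay nearer the 5′ end at 1.5 µM. For MST1 it was 44.7 ± 0.62% at 1.5 µM and 50.9 ± 1.99% with vehicle at 10 min (SD, n = 3, exact permutation p = 0.1), and 37.6 ± 4.67% against 50.4 ± 3.93% in the second study (n = 2, exact permutation p = 0.333). For LTBP3 it was 35.5 ± 0.82% against 46.0 ± 3.49% at 10 min (exact permutation p = 0.1) and 35.3 ± 5.37% against 43.8 ± 0.63% in the second study (exact permutation p = 0.333). The groups did not overlap in any of these, and each p is the smallest its design allows. At 0.3 µM and 10 min the center lay at 51.8 ± 3.93% for MST1 and 47.0 ± 6.07% for LTBP3, within the range of the vehicle spread (exact permutation p = 0.9 and 1.00), and its direction turned when single libraries were left out. After 60 min in the first study it was 48.9 ± 5.91% at 1.5 µM against 53.3 ± 1.56% for MST1, with overlap, and 43.0 ± 4.37% against 50.2 ± 4.33% for LTBP3, without. At 0.3 µM and 60 min it was 47.2 ± 2.03% for MST1, below all vehicle libraries, and 48.2 ± 1.69% for LTBP3, with overlap.

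For MST1 the loss was found in codons unique to it as well as in codons it shares with its copies. Only exact matches of windows counted as shared. Reads of the copies that map with mismatches could thus fall in unique codons, which was not tested. At 10 min 28.3% of the vehicle reads remained in codons unique to MST1 and 33.9% in shared codons. For the second study these shares were 43.0% and 41.6%, and after 60 min in the first study 35.7% and 36.4%. At 0.3 µM and 10 min 49.3% remained in unique and 65.9% in shared codons, and in mRNA the values were 118% and 108%. Among codons 1 to 50, those unique to MST1 had 23 reads at 1.5 µM and 16 with vehicle over the 10 min libraries, and 26 and 9 in the second study, not scaled for depth. The other measures of MST1 were not computed for unique codons.

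MST1 and LTBP3 were set against each other and against 3 other transcripts with lower footprints, in 14 comparisons of log2 changes within libraries. MDK encodes the secreted growth factor midkine, HSD17B11 a dehydrogenase of lipid droplets, and SORCS2 a sorting receptor. All 3 fell in whole-CDS reads at 10 min (log2 fold changes of -0.96, -1.16 and -1.44, edgeR adjusted p = 0.0160, 0.00115 and 0.0160). The change of MST1 minus that of LTBP3 was -0.47 at 10 min (95% interval -1.35 to 0.41, exact permutation p = 0.4) and -0.23 in the second study (-1.35 to 0.89, exact permutation p = 0.667). The change of MST1 minus that of HSD17B11 was -0.43 at 10 min (-0.75 to -0.12), with no overlap (exact permutation p = 0.1, adjusted over the 14 p = 0.7). For MST1 minus MDK it was -0.64 at 10 min (-1.44 to 0.17, exact permutation p = 0.1, adjusted p = 0.7) and -0.55 in the second study (-2.38 to 1.28, exact permutation p = 0.333, adjusted p = 0.848), both also with no overlap. No difference passed, but none could have. The smallest exact p is 0.1 for 3 against 3 libraries and 0.333 for 2 against 2, before adjustment over the 14. These tests thus decide nothing, and the intervals leave room for differences of more than 1 on the log2 scale in most pairs.

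For the gain in codons 1 to 50 as a share of the loss after them, MDK gave 17.7% at 10 min and 17.0% in the second study, HSD17B11 8.86% and 2.36%, and SORCS2 1.13% and 6.20%. The values for MST1 (6.16% and 9.20%) and LTBP3 (13.2% and 10.6%) lay within this range. At 10 min SORCS2 had only 12 reads in codons 1 to 50 over the libraries at 1.5 µM and 15 with vehicle. Dmax at 10 min was higher in MDK (0.423) and HSD17B11 (0.482) than in MST1 and LTBP3, and lower in SORCS2 (0.128). For the second study it was 0.325 in MDK, 0.296 in HSD17B11 and 0.216 in SORCS2, each above MST1 (0.191) and LTBP3 (0.194). SORCS2 had 141 reads in its smaller group, against 344 for MST1 and 397 for LTBP3. By Z, which allows for read number, SORCS2 (2.11) lay below MST1 (2.70) and LTBP3 (2.86). MDK (9.47) and HSD17B11 (6.34) lay above both.

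Across the 18 ribo-seq libraries of the first study, the levels most like those of MST1 among 9690 transcripts included those of BCAP31 (Pearson r = 0.901), HSD17B11 (0.901), LTBP3 (0.893) and PCBP1 (0.889). For LTBP3 they included those of MST1 (0.893), PCBP1 (0.877), BCAP31 (0.870) and PLA2G15 (0.865). These correlations include the libraries the genes were picked on and share library and dose, so no p is given.

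Genes around MST1 were read against the share of all transcripts that passed. Of 15 genes around macrophage-stimulating protein and its relative HGF, 8 were listed and tested, and MST1R, the RON receptor, is not analysed here. They were MET, the receptor of HGF, the activating proteases HPN, F12, F2 and PLAU, and the inhibitors SPINT1, SERPINA1 and SERPINC1. At 10 min 0 of 8 passed in whole-CDS footprints in either direction with edgeR, against 0.851% of all transcripts tested (1 at an unadjusted p below 0.05), with log2 fold changes from -0.13 to 0.32 and a median of 0.13 (median of all transcripts 0.01). Likewise 0 of 8 passed in the second study in footprints (-0.18 to 0.24, against 0.115% of all) or mRNA (-0.38 to 0.04, against 0 of all). HPN, the protease hepsin, had 0.22 and 0.18 in footprints. In the comparison of codons 1 to 50 with the rest at 10 min, 2 of 8 rose, F2 (0.89, edgeR adjusted p = 0.00840) and SERPINA1 (0.53, adjusted p = 0.0518), against the background of 9.66%. In the second study 0 of 8 rose, where 0.460% of all transcripts passed.

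Genes of latent TGF-β were read in the same way. Of 27 genes 20 were listed, and 19 were tested in footprints at 10 min. The ligands TGFB1 and TGFB2 had whole-CDS log2 fold changes of 0.06 and 0.09, the binding protein LTBP1 -0.30, fibrillin FBN1 -0.34, the receptors TGFBR1 and TGFBR2 -0.28 and 0.12, and 0 of 19 passed (range -0.34 to 0.17, median 0.03), where 0.851% of all transcripts did. Likewise 0 of 20 passed in the second study in footprints (-0.20 to 0.48, against 0.115% of all) or in mRNA (-0.09 to 1.00, against 0 of all). Counts of 0 at such shares are no result about either list. In codons 1 to 50 against the rest at 10 min, 5 of 18 rose, among them ITGAV, TGFB2, TGFBR2 and THBS1 (0.60 to 1.12, edgeR), where 9.66% of 10375 transcripts passed and 9.13% rose, and in the second study 0 of 20 did, where 0.460% passed. None of these counts was tested against other lists.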

How the data were processed

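Ribosome footprints (22 libraries) and mRNA fragments (4 libraries) of Huh7 cells were measured as reads per codon. Adapter and rRNA sequences were filtered out by the authors, who mapped what was left with Bowtie 1.1.2 to GRCh38 transcripts, 1 per expressed gene by kallisto 0.42.5. They allowed up to 5 best sites for a read, and the deposited values are raw counts at each P-site codon. A read with several best sites is counted at each. The labels spell the compound in more than 1 way, and PF-06446846 is used here.

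Counts were summed over each CDS, over codons 1 to 50, and over the rest. RPM divides by all CDS reads of a library. edgeR 4.0.16 in R 4.3.3 (filterByExpr, TMM, glmQLFit, glmQLFTest) was fitted over all transcripts with only the compared groups, no block and an FDR of 0.1. TE was the interaction of assay and treatment, and the early-late difference the interaction of region and treatment with library as a block. The last needed 10 reads in each region. Dmax and the center of density were computed as in the authors' own scripts, with 10 reads in each group and bins of 300. Single values were compared by two-sided exact permutation tests in Python 3.11.15 with scipy 1.17.1. The whole-CDS, TE and early-late fits, Dmax and the exact test were run on simulated data, and the other steps were not. Fold changes against vehicle at 1.5 µM and 0.3 µM share vehicle libraries.

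MST1, LTBP3, the other named genes and the lists were chosen with earlier results of these data known. Named were the members, MDK, HSD17B11 and SORCS2, genes of the lists, and, of the 5 transcripts with the highest Pearson correlation with each member, those reported here. The 3 transcripts on either side of the Dmax limit and the cell markers are named besides, the former chosen after their values were seen. Replicates correlated at r = 0.988 to 0.995 over 22 pairs and none were duplicates (chi-square per transcript of 4.45 or more). Deviations of samples with the same number correlated at 0.225 or more for 1.5 µM against 0.3 µM at 10 min, 0.155 or more for 0.3 µM against vehicle at 10 min and 0.410 or more at 60 min, which pairs them, but at 0.0581 for 1 pair of 1.5 µM and vehicle at 10 min. The pairing of ribo-seq and mRNA-seq in the second study comes from the shared lysates. Alternatives were DESeq2 1.42.0, its size factors, an FDR of 0.05, no minimum of counts, the replicate block, the first codon and last 15 codons left out, all 18 libraries in a single fit, other boundaries and windows, and leaving out each library in turn. Some results are not reported here.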

Additional observations from a re-analysis of the deposited data

How the results depend on the processing

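The whole-CDS loss at 1.5 µM, the loss 3′ of Dmax and the difference between codons 1 to 50 and the rest kept their direction in both genes under every alternative run. Reads of a gene per library (84 to 659 for MST1 and 96 to 593 for LTBP3 in ribo-seq) limit what single codons can show. Where a call or a value changed, the cause was not tested.

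With the replicate number as a block, MST1 passed between the doses at 10 min (-0.88) and both genes passed for TE (-1.42 for MST1 and -1.19 for LTBP3). TE also passed with DESeq2 (-1.40 and -1.18) and with culture as a block, an alternative chosen after seeing the data (-1.43 and -1.18). The block changed no other call of these genes. For 1.5 µM against vehicle at 10 min, whose numbers were not shown to pair the samples, it raised the transcripts passing from 94 to 1196, and in the second study from 13 to 129, where 2 pairs give no check.

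Boundaries between early and late codons mattered after 60 min in the first study. For 1.5 µM, MST1 went from 3.49 to 1.65 at codon 100 and 0.67 at codon 150, and LTBP3 from 2.49 to 1.63 at codon 150. For 0.3 µM, MST1 went from 2.56 to 1.32 at codon 100 and 0.75 at codon 150, and LTBP3 from 1.13 to 0.56 and 0.55. The change around codon 25 of MST1 in the second study was -0.0341 RPM in 3 codons. It was 0.111 in a single codon, 0.135 in 5 codons and 0.293 as percent of CDS reads. In the 10-codon stretch, which was added after seeing the data, it was 1.32. For LTBP3 at 0.3 µM and 10 min that stretch gave -0.0599 against 0.278. Without the first and last codons, MST1 minus MDK at 10 min was -1.02 in place of -0.64.

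Leaving out 1 library gave -1.27 to -0.97 for LTBP3 in whole-CDS reads at 10 min, with 1 call lost. mRNA changes ranged from -0.0065 to 0.31 for MST1 and from -0.028 to 0.27 for LTBP3 in the second study, and TE from -1.81 to -1.07 and from -1.34 to -0.9998. Both TE calls were gained without mRNA-seq vehicle replicate 4 (adjusted p = 0.0770 and 0.0444), and that of LTBP3 also without mRNA-seq vehicle replicate 5 (0.0498). The loss of MST1 reads 3′ of Dmax after 60 min ranged from -2.01 to -1.59. The center of density at 0.3 µM moved by -0.899 to 2.98 for MST1 and -2.36 to 3.53 for LTBP3 at 10 min, and by -3.46 to 0.476 for LTBP3 at 60 min. The change at codons 24 to 26 of MST1 in the second study ranged from -0.216 to 0.148 RPM. A lone library is assumed to vary like the other group.

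At 1.5 µM and 10 min, whole-CDS reads gave 94 transcripts passing, against 516 with DESeq2, 242 with end codons left out, 30 with all 18 libraries, 29 at an FDR of 0.05, and 9 (without vehicle replicate 1) to 1656 (without vehicle replicate 3) with 1 library left out. Reads 3′ of Dmax gave 425, against 717 with DESeq2, 1274 with the block, 195 with codon 50 for all, 144 at an FDR of 0.05, and 30 to 1806 with 1 library left out. The early-late difference gave 1002, against 550 at an FDR of 0.05, 498 with codon 150, 666 with the block, and 291 to 1183 with 1 library left out. Between the doses at 10 min, 0 became 96 with DESeq2, 390 with the block and 1 with all 18 libraries. After 60 min at 1.5 µM, 8 became 16 with DESeq2, 51 with the block, 14 with all 18 libraries and 0 to 8 with 1 left out, 24 for reads 3′ of Dmax became 95 with the block, and 23 for the early-late difference became 84 with the block and 4 with codon 150. In the second study, whole-CDS reads gave 10 to 129 (without 1.5 µM replicate 5) with 1 library left out, reads 3′ of Dmax 38, against 156 with the block and 33 to 105 (without 1.5 µM replicate 5) with 1 left out, the early-late difference 48, against 21 (without vehicle replicate 4) to 38 with 1 left out, and TE 4, against 11 with DESeq2, 13 with either block, 2 at an FDR of 0.05 and 1 to 128 with 1 library left out.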
